A study of Caenorhabditis elegans with 4 samples.

Results

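The left arm of Caenorhabditis elegans chromosome V carried 783 of the 13662 LIN-61 peaks in the combined peak list of the study. A peak was counted there when its centre lay in the first 6.97 Mb of chromosome V on genome build WS220, from base 1 up to the base before 6974717. The same rule placed 627 of the 11742 nuclear peaks of ChIP replicate 1 and 495 of the 9436 peaks of ChIP replicate 2 on the arm. The rest of chromosome V was divided into a centre, bases 6974717 to 13949433, and a right arm, bases 13949434 to 20924149. The peaks come from chromatin immunoprecipitation and sequencing (ChIP-seq) of wild-type worms of the laboratory strain N2, harvested as L3 larvae in a mixed population of males and hermaphrodites and grown at 20 degrees Celsius. The series has 2 ChIP libraries made with SDQ3520, an affinity-purified polyclonal rabbit antibody against LIN-61, and 2 libraries of input DNA. All 4 came from whole wild-type larvae, so the lists do not separate tissues, and how far each peak depends on LIN-61 itself was not tested.

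LIN-61 is a nuclear protein built from malignant brain tumour (MBT) repeats, which bind methylated lysines, and in worms it recognises methylation of histone H3 lysine 9, which marks heterochromatin. It belongs to the synthetic multivulva class B genes, which act with other chromatin regulators to keep genes of vulval induction and of the germ line in check. Repeats and lysine 9 methylation are known to be abundant on worm autosome arms, and the arms of chromosome V are known for large families of chemoreceptor genes. The peaks below are given by position and not by gene, because gene models of build WS220 were not used here. Each peak has a width and a score given by the authors' peak caller, and the score serves here to rank peaks within a list. The lists give no read counts, so the depth of the libraries is unknown. Nothing in the labels says that separate cultures gave the replicates, so their spread may be technical.

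LIN-61 peaks were sparse on the left arm of V for an autosome arm, but denser than in the centre of the same chromosome. In the combined list the arm had 112 peaks per Mb (exact Poisson 95% interval 104.5 to 120.4, counting error only), the right arm of V 166 (157 to 176) and the centre 56.6 (51.2 to 62.5). These intervals treat peaks as independent. Counts in 100-kb windows of the left arm had an SD of 97.6% of their mean, so the intervals may be too narrow. In replicate 1 there were 89.9 peaks per Mb on the left arm, 144.5 on the right arm and 43.9 in the centre. Replicate 2 had 71.0 on the left arm, 119.0 on the right arm and 36.6 per Mb centrally. The order of the 3 parts was the same in each list. The left arm averaged 80.4 ± 13.4 peaks per Mb and the right arm 131.8 ± 18.05 over the replicate lists (SD, n = 2). The ratio of left to right arm was 0.62 in the first ChIP library and 0.60 in the other (mean 0.61 ± 0.018, SD, n = 2). The ratio of left arm to centre was 2.05 in replicate 1 and 1.94 in replicate 2 (mean 2.00 ± 0.076, SD, n = 2). Both ratios lay farther from 1 than the replicates lay from each other. A two-sided exact permutation test that flips the sign of the log ratio in each library gave p = 0.5 for both, which is the smallest p that 2 libraries allow.

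The peaks on the left arm covered 414976 bp in the combined list, which is 5.95% of its length, against 9.55% of the right arm and 3.003% of the centre. The covered share of the left arm was 4.52% in replicate 1 and 3.10% in replicate 2. Among the 10 autosome arms, the left arm of V had the lowest peak density and the lowest covered share in all 3 lists. The next lowest was the right arm of chromosome IV. Its density was hardly different, with 112 combined peaks per Mb on the left arm of V against 113 on the right arm of IV, and the counting intervals of the pair overlapped in each list. The covered share differed more: the ratio of the left arm of V to the right arm of IV was 0.87 in replicate 1 and 0.78 in replicate 2 (mean 0.82 ± 0.060, SD, n = 2; exact sign-flip permutation test, p = 0.5, the smallest possible). The other 9 arms ranged from 113 to 294 combined peaks per Mb with a median of 227.

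**Figure D1:**
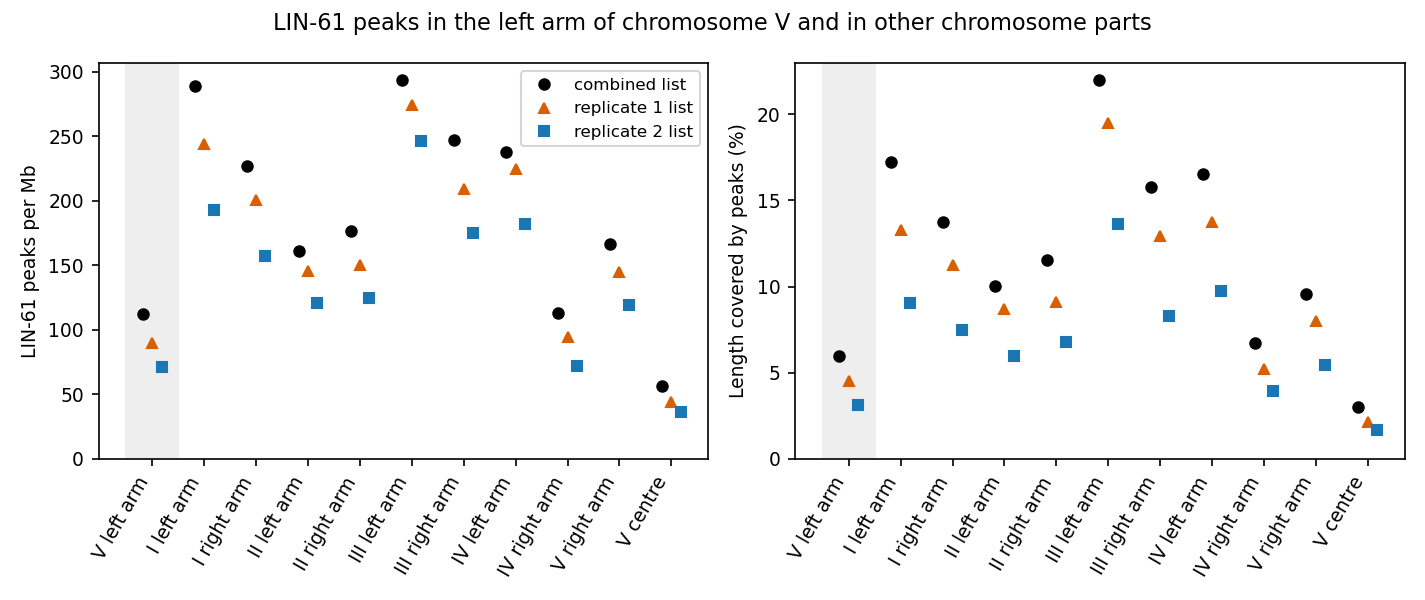
LIN-61 peaks per Mb (left) and percent of length covered by peaks (right) in the left arm of V (shaded), the other 9 autosome arms and the centre of V, with 1 point for each peak list. The left arm of V is the lowest of the 10 arms in each list, at 112 peaks per Mb in the combined list, and lies above the centre of V at 56.6.

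The arm had fewer strong peaks than the right arm of V. Its combined peaks had a median score of 7.59, against 9.83 on the right arm of V and 6.94 in the centre. The left arm's median score was 6.95 in replicate 1 and 7.17 in replicate 2, against 9.37 and 9.23 on the right arm. The difference, left minus right, was -2.42 score units in replicate 1 and -2.06 in replicate 2. The left arm was thus lower by a mean of 2.24 ± 0.25 (SD, n = 2, exact sign-flip permutation test, p = 0.5, the smallest possible). Scores may be on a different scale in each list, so this SD need not be the spread of 1 quantity. The difference between the arms was larger among strong peaks. Of the left-arm peaks, 38 of 783 (4.85%) were in the top 10% of the combined list by score, against 163 of 1159 (14.1%) on the right arm and 24 of 395 (6.08%) in the centre. The left-arm share in the top 10% was 4.94% in replicate 1 and 5.25% in replicate 2, against 13.3% and 12.5% on the right arm. In the top 1% of the combined list the left arm had 1 peak (0.13%), the right arm 14 (1.21%) and the centre 0. The contrast was smaller in replicate 1, with 3 such peaks on the left arm (0.48%) and 14 on the right arm (1.39%). Other arms were like the left arm of V in this: on the left arm of chromosome I 4.90% of combined peaks, 4.24% of replicate 1 peaks and 4.76% of replicate 2 peaks were in the top 10% of their list.

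Widths differed little between the arms of V. The middle 50% of left-arm combined peaks were 202 to 581.5 bp wide, with a median of 302 bp, against 335 bp on the right arm and 287 bp in the centre. The median was 300 bp in replicate 1 and 280 bp in replicate 2 on the left arm, against 341 bp and 300 bp on the right arm, a mean difference of -30.5 ± 14.8 bp (SD, n = 2; exact sign-flip permutation test, p = 0.5, the smallest possible). Among peaks at or above the median score of each list, the mean difference over the replicates turned round to 23.5 bp, which rested on replicate 2 (46 bp); it was 1 bp in replicate 1 and -11 bp in the combined list. The left arm's median width was nonetheless below that of each of the other 9 autosome arms in all 3 lists. Peaks of 2 kb or more were few, at 25 in the combined list (3.19% of the arm's peaks). Their share was 3.54% on the right arm and 4.3% in the centre. In replicate 1 the shares were 2.07% on the left arm, 3.37% on the right arm and 2.61% in the centre. In replicate 2 they were 1.41%, 1.93% and 2.35% in the same order. The left arm had the lowest share of the 10 autosome arms in all 3 lists. Combined peaks this wide made up 20.6% of the left arm's summed peak width, 20.5% on the right arm and 27.3% over all nuclear peaks.

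**Figure D2:**
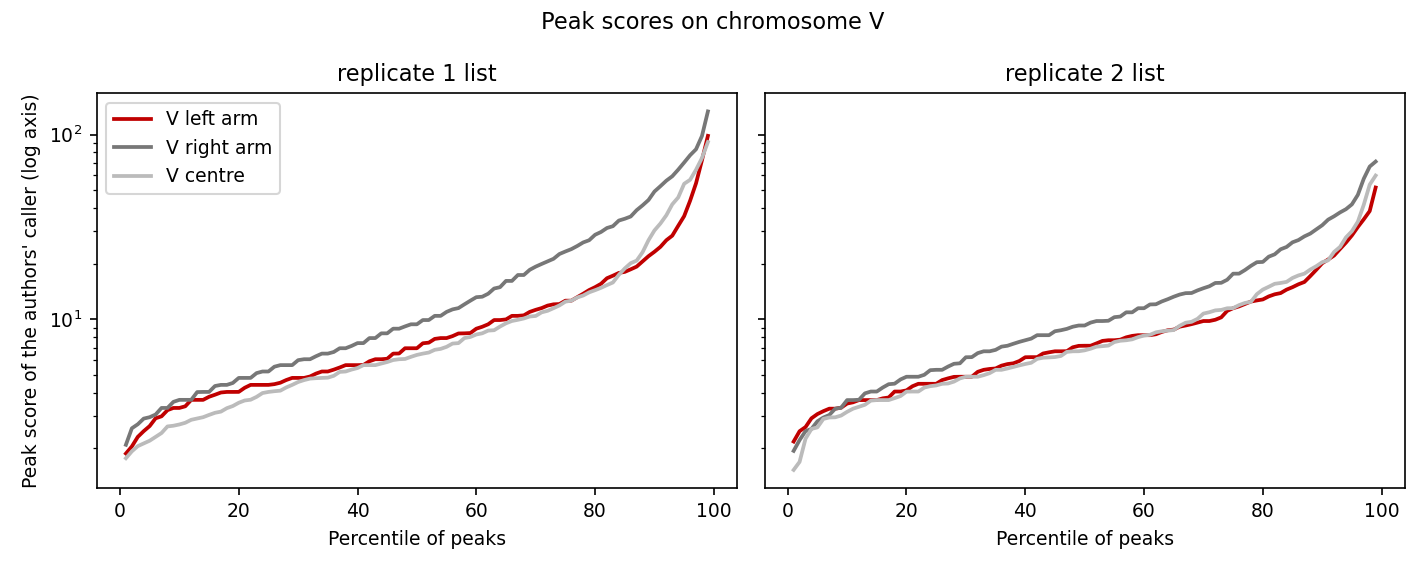
Peak score at each percentile of the peaks on the left arm, right arm and centre of chromosome V, in replicate 1 and replicate 2, on a log axis. The left-arm curve stays close to that of the centre at the median (6.95 in replicate 1 and 7.17 in replicate 2) and below that of the right arm (9.37 and 9.23).

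The combined peaks of the arm were then set against the replicate lists. Both replicates had a peak at 323 of the 783 (41.3%, 95% Wilson interval 37.9 to 44.7), counting any overlap of at least 1 bp, against 45.3% of all nuclear combined peaks. A further 206 (26.3%) overlapped a peak of replicate 1 only, 71 (9.07%) overlapped replicate 2 only and 183 (23.4%) overlapped neither, against 26.5%, 7.86% and 20.3% over all nuclear combined peaks. On the right arm of V, 49.3% (46.4 to 52.1) overlapped both replicates, and in the centre 37.7% (33.1 to 42.6). At the median, left-arm peaks with both replicates scored 16.75 and were 627 bp wide, and those with neither scored 4.06 and were 189 bp wide. Read from the replicate lists, 365 of 627 replicate 1 peaks on the arm (58.2%, 54.3 to 62.0) had a partner in replicate 2, against 59.1% over all nuclear peaks of replicate 1. In the other direction, 411 of 495 replicate 2 peaks (83.0%, 79.5 to 86.1) had a partner in replicate 1, against 85.0% over all peaks of replicate 2. These shares lay close to those of the whole lists. The intervals treat neighbouring peaks as independent, which they need not be, and cover counting error only.

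Support followed the score on the left arm much as in the whole list. The series has only 2 ChIP libraries, so the combined list is not independent of the replicate lists. Some rise of overlap with score is therefore built in. When the whole combined list was divided into 4 equal classes by score, 0 of the 198 left-arm peaks in the weakest class overlapped both replicates (Wilson upper bound 1.90%). In the next class it was 25 of 223 (11.2%), then 157 of 220 (71.4%), and in the strongest class 141 of 142 (99.3%). Over all nuclear combined peaks these shares were 1.32%, 13.4%, 67.0% and 98.7%, from the weakest class to the strongest. The left arm had only 18.1% of its peaks in the strongest class, the right arm 32.7% and the centre 16.5%. Within class 3, scores 8.58 to 18.64, 71.4% of the left-arm peaks (65.1 to 76.9) and 60.7% of the right-arm peaks (54.8 to 66.4) overlapped both replicates. This was the opposite order to that over all scores. The intervals overlapped only between 65.1 and 66.4, which does not settle whether the shares differ, and the difference was not tested. In the other classes the right-arm shares were 1.18%, 10.5% and 99.5%, from the weakest to the strongest. Class 3 peaks were also wider on the left arm, with a median of 444.5 bp against 344.5 bp on the right arm. With peaks outside the arm weighted to the left arm's spread over 10 score classes, 40.4% overlapped both replicates, close to the 41.3% seen on the arm.

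**Figure D3:**
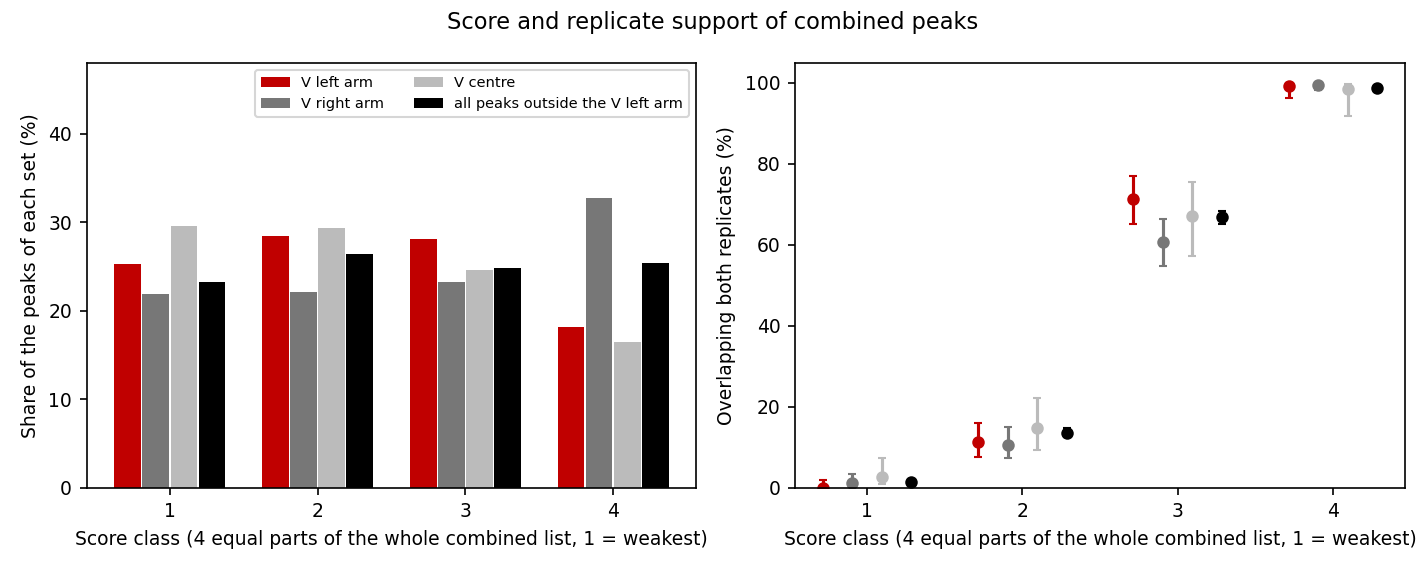
Share of each set's combined peaks in each of 4 score classes of the whole list (left) and percent of them overlapping a peak of both replicates, with 95% Wilson intervals (right), for the left arm, right arm and centre of V and all peaks outside the left arm. The left arm has 18.1% of its peaks in the strongest class, where 99.3% overlap both replicates, against 32.7% for the right arm.

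Paired peaks of the replicates ranked alike only in part. On the arm 350 pairs of overlapping peaks were formed, each peak used once, and their scores correlated across pairs at 0.59 by Spearman's rho and 0.69 by Pearson's r. The corresponding rho was 0.73 over 604 pairs on the right arm, 0.61 over 162 pairs in the centre and 0.72 over all 6612 nuclear pairs. These correlations are descriptions across sites that share the same libraries. The centres of paired left-arm peaks lay a median of 49 bp apart. The replicate 1 peak was the wider of the pair in 241 of 350 (68.9%), with a median width of 445 bp in replicate 1 and 326 bp in replicate 2. Over all nuclear pairs it was the wider in 4738 of 6612 (71.7%), so the left arm was much like the whole lists in this.

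LIN-61 peaks were unevenly spread along the arm. Counted in windows of 1 Mb from the left end inward, the combined list had 116, 160, 148, 78, 149 and 62 peaks and then 70 in the last, shorter window. Replicate 1 had 94, 123, 132, 63, 113, 48 and 54 peaks in the same windows, and replicate 2 had 64, 87, 110, 54, 98, 32 and 50. The fourth window was low between denser neighbours in all 3 lists, and the last 2 windows were low in all 3 as well. In a split chosen after these counts were seen, the first 5 Mb had 130.2 combined peaks per Mb and the remaining stretch, from base 5000001 on, had 66.8. That remaining stretch had 51.7 peaks per Mb in replicate 1 and 41.5 in replicate 2, against 43.9 and 36.6 in the centre of V. The low peak density thus began inside the limit used for the arm. By covered share the sixth window was like the centre in the combined list, at 2.99% against 3.003%, but the last window was higher, at 4.46%. In the last window it was 3.49% in replicate 1 and 2.60% in replicate 2, against 2.16% and 1.65% in the centre. The last combined peak inside that limit lay at 6941938 to 6942177, 240 bp wide with a score of 1.7, and the first outside it lay at 6984641 to 6985633, 993 bp wide with a score of 41.2.

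**Figure D4:**
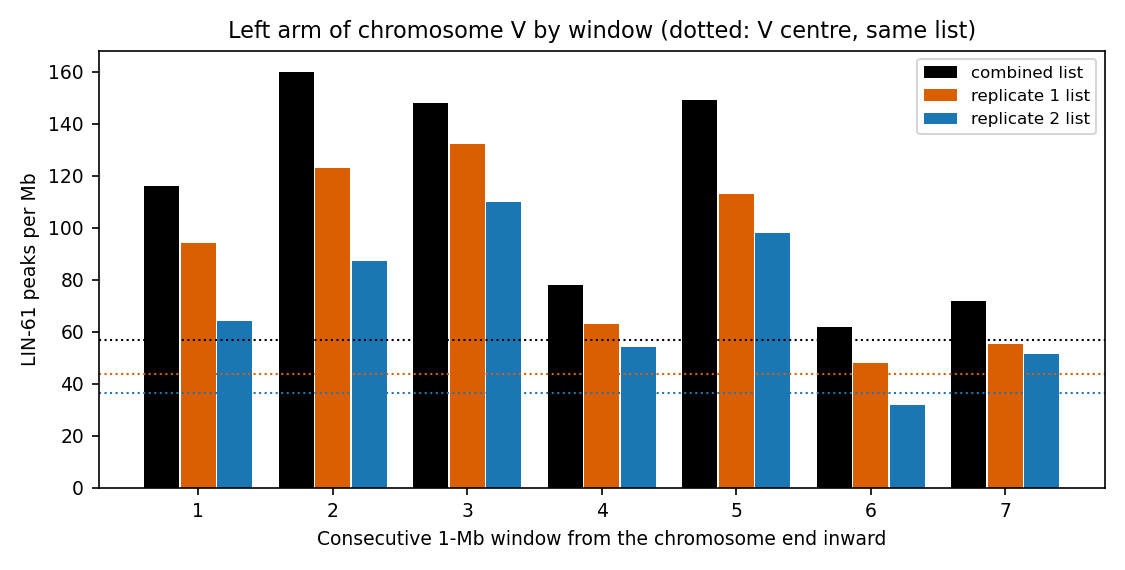
LIN-61 peaks per Mb in 7 consecutive windows of the left arm of V, from the chromosome end inward, in each peak list, with dotted lines at the density of the centre of V in the same list. The windows range from 62 to 160 peaks per Mb in the combined list. The sixth window has 62 and the last 71.8, against 56.6 at the line of the centre.

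At a finer scale, the covered bases lay in few windows, much as elsewhere on V. Of 70 windows of 100 kb on the left arm, 12 held 50% of all bases covered by peaks in each list, against 13 of 70 on the right arm and 15 of 70 in the centre in the combined list, and 12 in both replicates for both of these parts. The covered share per window ranged from 0% to 30.8%, with a median of 3.39%, in the combined list. The densest window was 2600001 to 2700000, with 54 combined peaks over 30.8% of its length, 23.0% in replicate 1 and 14.2% in replicate 2. Next came 4500001 to 4600000, with 46 peaks and 29.4% covered, 17.7% in replicate 1 and 14.1% in replicate 2. These windows ranked 1 and 2 in both replicates. They were followed by 1800001 to 1900000 (20.5% in the combined list), 900001 to 1000000 (18.8%) and the window at the chromosome end, 1 to 100000 (16.4%). In the order given, the median combined scores of these 5 windows were 8.87, 7.19, 9.21, 10.25 and 7.99, against 7.59 over the whole arm. Windows with fewer covered bases also had medians on both sides of that value.

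With peaks chained wherever 5 kb or less lay between them, the arm's combined peaks formed 202 tracts, 89 of them single peaks. The 49 tracts of 5 or more peaks held 518 of the 783 peaks (66.2%), against 75.6% of peaks on the right arm and 32.7% in the centre, both of which have another peak density. The tract with the most covered bases spanned 4516092 to 4588015 and held 41 peaks over 25868 bp. Replicate 1 covered 16244 bp of that tract and replicate 2 covered 11928 bp. The next tract spanned 2643132 to 2701845 and held 44 peaks over 24174 bp, of which 23 overlapped both replicates. Another spanned 939393 to 999462 and held 24 peaks over 16608 bp. The median gap between neighbouring combined peaks was 1246.5 bp on the left arm, against 943.5 bp on the right arm and 2820 bp in the centre.

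Long stretches of the arm were without peaks, as elsewhere on V. Gaps of more than 50 kb between neighbouring combined peaks numbered 30 on the left arm, 42 in the centre and 27 on the right arm. The longest gap was 248928 bp in the centre and 103679 bp on the right arm. On the left arm the longest stretch ran from 3267705 to 3434556, 166852 bp. Replicate 1 had 1 weak peak in it (score 5.63) and replicate 2 none. The next ran from 5848162 to 6001414, 153253 bp, and from 5330216 to 5470930, 140715 bp, with no peak of either replicate inside. Windows of 100 kb with no combined peak were 500001 to 600000, 3300001 to 3400000 and 5900001 to 6000000. The first and last of them were empty in both replicates too. The centre had 7 windows with no combined peak and the right arm 0. An empty stretch says only that no peak there passed the authors' threshold.

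Over the 70 windows of 100 kb, the lengths covered in replicate 1 and replicate 2 were correlated at 0.95 by Spearman's rho and 0.92 by Pearson's r, given as a description across windows of the same libraries. Replicate 1 covered more than replicate 2 in 59 of the 66 windows in which either had a peak, and over the whole arm replicate 2 covered 0.69 times as many bases. In the window at the chromosome end, one of several with a low ratio, replicate 1 covered 14404 bp and replicate 2 covered 4938 bp, 0.34 times as many, and the window ranked 5 in replicate 1 and 17 in replicate 2. The window from 6000001 to 6100000 was alike, with 12278 bp in replicate 1 and 4257 bp in replicate 2, 0.35 times as many, and that from 5800001 to 5900000 was lower still, at 0.28. At the end itself, the first peak began at base 1 in replicate 1, at base 164 in the combined list and at base 3410 in replicate 2. A replicate 1 peak of 3532 bp at 17436 to 20967, with a score of 14.42, had no partner in replicate 2. The strongest combined peak at the end, 9707 to 12828, spanned 3122 bp and scored 39.49, and its best peaks scored 24.86 in replicate 1 and 21.03 in replicate 2. The stretch from 17436 to 20967 was thus called in replicate 1 and not in replicate 2, while the strongest peak was called in both. The whole terminal tract, 164 to 20969, had 8 peaks in each replicate, over 9479 bp in replicate 1 and 3264 bp in replicate 2.

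**Figure D5:**
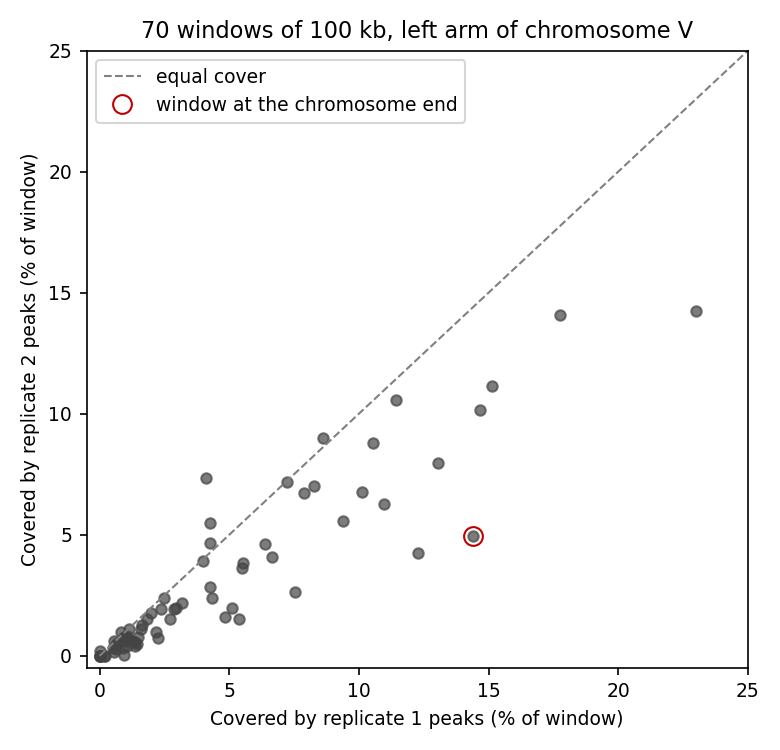
Percent of each 100-kb window of the left arm of V covered by replicate 1 peaks (x axis) and replicate 2 peaks (y axis), with 1 point per window and a dashed line of equal cover. Most points lie under the line; the circled window at the chromosome end has 14.4% in replicate 1 and 4.94% in replicate 2.

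The strongest sites of the arm were taken as its 15 best-scoring combined peaks among those with both replicates. They scored 58.65 to 108.96 and ranked between 106 and 711 in the whole combined list. Their widths ran from 371 to 7389 bp with a median of 1933 bp. The highest score, 108.96, belonged to the widest peak of the arm, at 1152172 to 1159560. The replicate 1 peak there spanned 7358 bp with a score of 102.4, and replicate 2 had 2 peaks, the better one scoring 65.68. Its neighbour at 1149191 to 1152116, next to it on the left, scored 76.03, with best scores of 86.78 in replicate 1 and 38.45 in replicate 2. These adjoining peaks belonged to a tract of 5 peaks, 1145330 to 1159560, of which peaks covered 79.1%.

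Another pair of strong peaks lay near 3.65 Mb. The combined peak at 3652931 to 3655758 scored 98.99, its replicate 1 partner 105.54 and its replicate 2 partner 55.7, and both partners ranked 5 on the arm. The nearby peak at 3656704 to 3657330 scored 59.94, with 71.95 in replicate 1 and 31.95 in replicate 2. The same 1-Mb window, low in peak number, thus held 4 of the 15 strongest sites, the others being 3520120 to 3522303 (88.97) and 3707267 to 3708070 (64.5). The windows from 2000001 to 3000000 and from 4000001 to 5000000, with 148 and 149 combined peaks, held none of the 15, and the window from 1000001 to 2000000, with 160, held 3. The densest window was the last of these in the combined list and that from 2000001 to 3000000 in both replicates.

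The best-ranked site in both replicates was 5776976 to 5778507, ranked 3 on the arm in the combined list with a score of 96.85. Its replicate 1 peak scored 173.52 and the better of its 2 replicate 2 peaks 92.83, each ranked 1 on the arm. Other sites in the stretch beyond 5 Mb, where peaks were sparse, were 6100579 to 6100949 (74.83), 6299216 to 6300145 (63.81), 5639942 to 5641874 (59.43) and 5047109 to 5047608 (58.65). The remaining sites were 982606 to 983956 (69.99), 976546 to 980009 (63.26), 723718 to 728123 (63.99) and 1255972 to 1258561 (65.12). Of the 15 sites, 9 were matched by a single peak in each replicate. Among all the arm's combined peaks with both replicates this held for 241 of 323 (74.6%), and for 73.3% of such nuclear peaks. The replicate 1 score was the higher in 14 of the 15, and the exception was 6100579 to 6100949, with 35.2 in replicate 1 and 73.21 in replicate 2. The scores of the lists are on the authors' own scales, so an excess in 1 list is no measure of binding.

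The stretch from 6071479 to 6100949, which ends with that exception, held the largest disagreements in rank among the 5 best peaks of each replicate, and was singled out after its values were seen. The replicate 1 peak at 6071500 to 6072897 scored 170.87 and ranked 2 on the arm, while its partner in replicate 2 scored 14.7 and ranked 77. The replicate 1 peak at 6088744 to 6089318 scored 150.42 and ranked 3, while its partner in replicate 2 scored 18.93 and ranked 55. The combined list gave these sites scores of 26.86 and 30.8, ranks 79 and 60 on the arm. Farther in, the peak at 6100596 to 6100985 ranked 2 in replicate 2 and its partner ranked 33 in replicate 1. Between them lay peaks at 6091494 to 6092097 and 6095349 to 6095697, with 42.06 and 28.05 in replicate 1, and 29.08 and 22.74 in replicate 2. The sites were thus called in both libraries, and what differed was their rank.

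The widest peaks of the arm also differed in how the replicates saw them. After the 7389 bp peak came 3434557 to 3441183, 6627 bp wide, which was a single peak in both replicates that covered 99.4% of it in replicate 1 and 99.9% in replicate 2. The 5196 bp peak at 6004705 to 6009900 was covered wholly in replicate 1, by a peak of score 22.4, and to 9.14% in replicate 2, by 2 short peaks of which the better scored 7.68. The 5164 bp peak at 2054515 to 2059678 was split into 3 peaks that covered 90.5% of it in replicate 1, and into 6 that covered 80.5% in replicate 2. The 4409 bp peak at 4578153 to 4582561 was split into 2 peaks in replicate 1, covering 95.2%, and 5 in replicate 2, covering 38.2%. Over the 25 peaks of 2 kb or more, 24 overlapped both replicates, with a mean of 2.00 pieces in replicate 1 and 2.56 in replicate 2, against 615 of 625 with 1.90 and 2.80 pieces over all nuclear combined peaks. Width and score went together across the arm's 783 combined peaks, with Spearman's rho of 0.67, as a description.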

How the data were processed

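Per the file headers, the authors called binding sites with MACS on genome build WormBase WS220, and deposited 1 peak list for each ChIP library and 1 for the series. Not given in the sources used here are the aligner, read filters, control, MACS version and threshold, and how the combined list was made. The deposited score is a peak's own value from the authors' caller, and the quantity behind it is not named. Samples were grouped by title. Coordinates count from 1. The 2 mitochondrial peaks of replicate 1 were set aside. Each chromosome was taken to end at the last base that a peak of any list reached, and arms and centres as equal parts of that length. Peaks were placed by their centre and shared when at least 1 bp overlapped. Shares have Wilson 95% intervals. Values of the replicate lists were compared between parts by an exact two-sided sign-flip permutation test over the 2 libraries, since peaks are not replicates. The overlap code was tested on simulated data. The regions named are the 15 best-scoring combined peaks with both replicates, the 5 widest, the 5 best covered and all empty windows, the 3 longest gaps, the 3 best covered tracts, the peaks beside the limit and, in the closing section, the best peaks without a partner; the other peaks at the chromosome end and the best of each replicate were chosen after their values were seen. The arm, the lists and the tests were chosen with earlier results of these data known. No genome of build WS220 was used here, so neither sequences nor genes are given. The software was scipy 1.17.1, pandas 2.3.3, numpy 2.4.6 and matplotlib 3.10.9 under Python 3.11.15.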

Additional observations from a re-analysis of the deposited data

How the results depend on the processing

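The ratio of left to right arm density on V kept its direction in each alternative, from 0.48 in the stronger part of each list to 0.70 with peaks merged over gaps of 1 kb or less, and 0.60 to 0.62 with 1 replicate left out. The ratio of left arm to centre went from 1.81 for merged peaks to 2.17 in the stronger part, and 1.94 to 2.05 with 1 replicate left out. The smallest p of 0.5 holds throughout, so these tests say nothing of stability. The peak density of the arm, 80.4 per Mb over the replicates, was 37.6 in the stronger part, 46.3 for merged peaks and 112 in the combined list, an alternative added after the data were seen, while peaks covered 3.81% of the arm; left out in turn, the replicates gave 71.0 to 89.9. The share of combined peaks with both replicates, 41.3%, became 54.3% for merged peaks and 30.5% where 50% of the peak had to be covered. For replicate 1 peaks the share with a partner, 58.2%, became 67.0% for merged peaks and 41.8% where 50% of both peaks had to overlap. For replicate 2 peaks, 83.0% became 52.9% with 50% of both peaks overlapping and 78.9% in the stronger part. The difference in median width between the arms, -30.5 bp, reversed to 23.5 bp in the stronger part (1 bp in replicate 1, 46 bp in replicate 2, and -11 bp, not reversed, in the combined list), and the cause was not tested; with 1 replicate left out it was -41 to -20 bp. The score difference kept its direction, -2.42 to -2.06 with 1 replicate left out. The rank correlation of paired scores, 0.59, was 0.70 for pairs with 50% overlap. The overlap measures need both replicates, so no replicate could be left out of them. No paired analysis was possible because no peak list of the like-numbered input libraries was analysed here; this concerns ChIP against input, while parts of chromosome V were compared within each ChIP library. With depth unknown, it cannot be told whether unpartnered replicate 1 peaks lie just under the threshold in replicate 2.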

Other observations

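Some peaks of the left arm of V were seen in 1 library only. In replicate 1, 262 of the 627 peaks had no partner in replicate 2, against 4807 of 11742 over all nuclear peaks of that list. Shares with a partner were close, at 58.2% on the arm and 59.1% over the list. The unpartnered peaks had medians of 4.80 for score and 220 bp for width in both sets. The strongest of those on the arm, at 2200453 to 2200975, scored 33.42 and ranked 36 there. The next, at 5842410 to 5843702, scored 14.89. The other 3 of the 5 strongest were 17436 to 20967 (14.42) at the chromosome end and 1912111 to 1912374 and 2494958 to 2495372 (14.3 each). In replicate 2, 84 of the 495 peaks had no partner in replicate 1, against 1413 of 9436 over all peaks of that list. The strongest on the arm, at 5505129 to 5505331, scored 11.69 and ranked 120. It was followed by 1381805 to 1382062 (9.76), 5272506 to 5273075 (8.51), 2385289 to 2385560 (8.34) and 6539435 to 6539897 (8.25). All 10 of these peaks overlapped a combined peak.

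The combined list also had peaks that neither replicate list had. On the arm there were 183 of these (23.4% of its peaks), against 20.3% of all nuclear combined peaks. The strongest on the arm, at 1868682 to 1868930, scored 13.35, and it lay in the window ranked 3 by covered length. It was followed by 1889894 to 1890362 (9.41) in the same window, 4634247 to 4634504 (9.41), 4174267 to 4174586 (8.71) and 27733 to 27887 (8.61). In the other direction, 49 replicate 1 peaks (7.81%) and 5 replicate 2 peaks (1.01%) on the arm overlapped no combined peak, against 7.43% and 1.66% of the whole lists, with highest scores of 9.96 and 8.18.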
